A study of Mus musculus with 22 samples.

Results

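The 9 genes described here are *Ifit1*, *Ifit2*, *Ifit3*, *Isg15*, *Irf7*, *Usp18*, *Rsad2*, *Oasl2* and *Ifi44*, genes that cells switch on when they sense type I interferon. They were chosen by symbol from a gene count table of mouse liver RNA, and all 9 were found among its 55573 genes. All 9 were also among the 14062 genes tested, whose counts averaged 10 or more over the libraries. Type I interferons (interferon alpha and beta) bind the receptor pair IFNAR1 and IFNAR2, whose kinases JAK1 and TYK2 set off the formation of the transcription factor complex ISGF3. This complex binds interferon-stimulated response elements (ISREs) in the promoters of target genes. In liver, hepatocytes, Kupffer cells, endothelial cells and infiltrating myeloid cells can all answer to interferon, and the response is best known from viral hepatitis and from the inflammation that goes with fatty liver disease.

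The livers came from C57BL/6 mice in 4 groups. Cre mice carried Albumin-Cre and wild-type *Flcn* alleles and served as controls. FLCN KO mice carried the same Albumin-Cre transgene, which is active in cells of the hepatocyte lineage, with floxed alleles of *Flcn*, the gene of folliculin, a regulator of mTORC1 and of the transcription factors TFEB and TFE3. Both genotypes ate either chow with 10 kcal percent fat or a methionine and choline deficient (MCD) diet, which produces steatohepatitis and fibrosis, for 6 weeks from 6 weeks of age. The groups held 6 Cre chow, 5 Cre MCD, 5 FLCN KO chow and 6 FLCN KO MCD livers, 22 in all, with 13751347 to 21144388 counted reads per library. Cells without Cre keep *Flcn*, and which cells did so was not measured. In bulk liver RNA fewer cells of a type and less RNA per cell cannot be told apart. Levels are given as CPM (read counts relative to the TMM-scaled library size), and fold changes, standard errors (SE) and adjusted p-values come from 1 edgeR quasi-likelihood fit of all 22 libraries with Benjamini-Hochberg adjustment over the 14062 tested genes, in which a gene was called at an adjusted p under 0.05.

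*Flcn* itself was lower in FLCN KO than in Cre livers on chow. Its level was 27.7, 31.5, 32.0, 26.1, 32.7 and 40.2 CPM in the 6 Cre chow livers and 24.2, 20.0, 16.7, 19.4 and 21.8 CPM in the 5 FLCN KO chow livers, so these groups did not overlap (log2 fold change −0.63 ± 0.17 SE, edgeR adjusted p = 0.0249). On the MCD diet it was 31.7, 18.2, 39.9, 32.5 and 23.6 CPM in Cre livers and 28.0, 23.8, 32.6, 17.6, 25.3 and 29.0 CPM in FLCN KO livers. These groups overlapped widely (log2 fold change −0.16 ± 0.17 SE, edgeR adjusted p = 0.567). Recombination removes a single exon and the counts cover the whole gene, so reads outside that exon, and reads from cells without Cre, check the genotype only in part. For the MCD livers the genotype rests on the labels.

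Some libraries stood apart before any comparison was made. In 12 libraries counts of *Xist* far exceeded those of the Y-linked genes *Ddx3y*, *Eif2s3y*, *Kdm5d* and *Uty*, and the reverse held in the other libraries, although the labels gave no sex. Read this way, the groups held 3 female and 3 male Cre chow, 3 and 2 Cre MCD, 3 and 2 FLCN KO chow, and 3 and 3 FLCN KO MCD livers. The 5 male chow livers (Cre chow replicates 1, 5 and 6 and FLCN KO chow replicates 1 and 3) were also the 5 libraries in which under 75% of reads had mapped uniquely, so on chow sex and this mapping difference cannot be told apart. Y-linked reads were also counted in some libraries read as female, most in Cre MCD replicate 1 (675 against 5411 *Xist* reads) and FLCN KO chow replicate 2 (451 against 6222). Cre MCD replicate 3 carried skeletal muscle transcripts, with 3150.83 summed CPM over 10 muscle genes against 1.18 to 153 in the other Cre MCD livers. For the genes described here, calls in the comparisons of diet and genotype are given with all libraries and, in part, without these. Results for the other gene lists, for cell markers and for the sexes within groups are given with all libraries only. How far those results rest on the libraries that stood apart is not shown.

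The promoters of 4 of the 9 genes carried the core letters of an ISRE close to the transcription start. RefSeq windows from 250 bases before to 50 bases after the start were at hand for 8 of the 9 genes (build GRCm38.p6), all except *Usp18*. The core, GAAA, any 2 bases and GAAA again, searched on both strands with overlapping matches allowed, occurred in 3.44% of 32851 such windows of mouse genes and in those of *Ifit1*, *Ifit3*, *Isg15* and *Rsad2*. The stretches below, written 5′ to 3′ along each gene's own strand with the core in capitals, are shown because ISGF3 is known to bind elements of this kind.
*Ifit1* (chr19:34640775-34640823, plus strand): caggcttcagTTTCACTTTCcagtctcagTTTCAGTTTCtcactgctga
*Ifit3* (chr19:34583363-34583426, plus strand): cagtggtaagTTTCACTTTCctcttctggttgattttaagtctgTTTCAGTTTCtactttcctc
*Isg15* (chr4:156200865-156200906, minus strand): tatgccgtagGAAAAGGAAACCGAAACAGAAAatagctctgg
*Rsad2* (chr12:26456553-26456582, minus strand): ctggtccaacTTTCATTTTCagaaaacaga

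*Ifit1* and *Ifit3* each held a pair of cores in the reverse orientation (TTTC, any 2 bases, TTTC), 104 and 85 bases before the start in *Ifit1* and 156 and 122 bases before it in *Ifit3*, counted to the first base of each core. *Isg15* held 3 overlapping cores in the forward orientation, the first at 78 bases before the start, and *Rsad2* a single reverse core at 120 bases before it. The stricter core, with CT as the 2 middle bases, was found in 0.231% of all windows and in those of *Ifit1* and *Ifit3*. *Ifit2*, *Irf7*, *Oasl2* and *Ifi44* had no match to the core, which says only that these letters are not in this window. The interferon gamma element core TTCNNNGAA occurred in 8.3% of windows and, among the 9 genes, in *Ifit2*, and the E-box CACGTG, the letters bound by TFEB and TFE3, occurred in 7.15% of windows and in those of none of the 8 genes with a window. These are matches of letters, not measured binding sites.

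The mean level was highest in FLCN KO chow livers for 7 of the 9 genes, and of these *Ifit1*, *Ifit3*, *Isg15*, *Irf7*, *Oasl2* and *Ifi44* were lowest in FLCN KO MCD livers. The full order of the 4 groups was the same for *Ifit1*, *Ifit3*, *Irf7* and *Ifi44*, with Cre chow above Cre MCD livers, while *Isg15* and *Oasl2* had these Cre groups the other way round. *Ifit2*, *Usp18* and *Rsad2* were lowest in Cre chow livers, with *Usp18* highest in FLCN KO MCD livers and *Rsad2* highest in Cre MCD livers. Per kilobase of annotated exon, the mean level in Cre chow livers was highest for *Irf7* (18.1 ± 2.36 CPM per kb, SD, n = 6) and *Isg15* (14.7 ± 2.94) and lowest for *Ifi44* (1.71 ± 0.670) and *Ifit2* (1.31 ± 0.338), while in FLCN KO MCD livers *Usp18* stood highest (24.7 ± 3.15, n = 6).

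**Figure D1:**
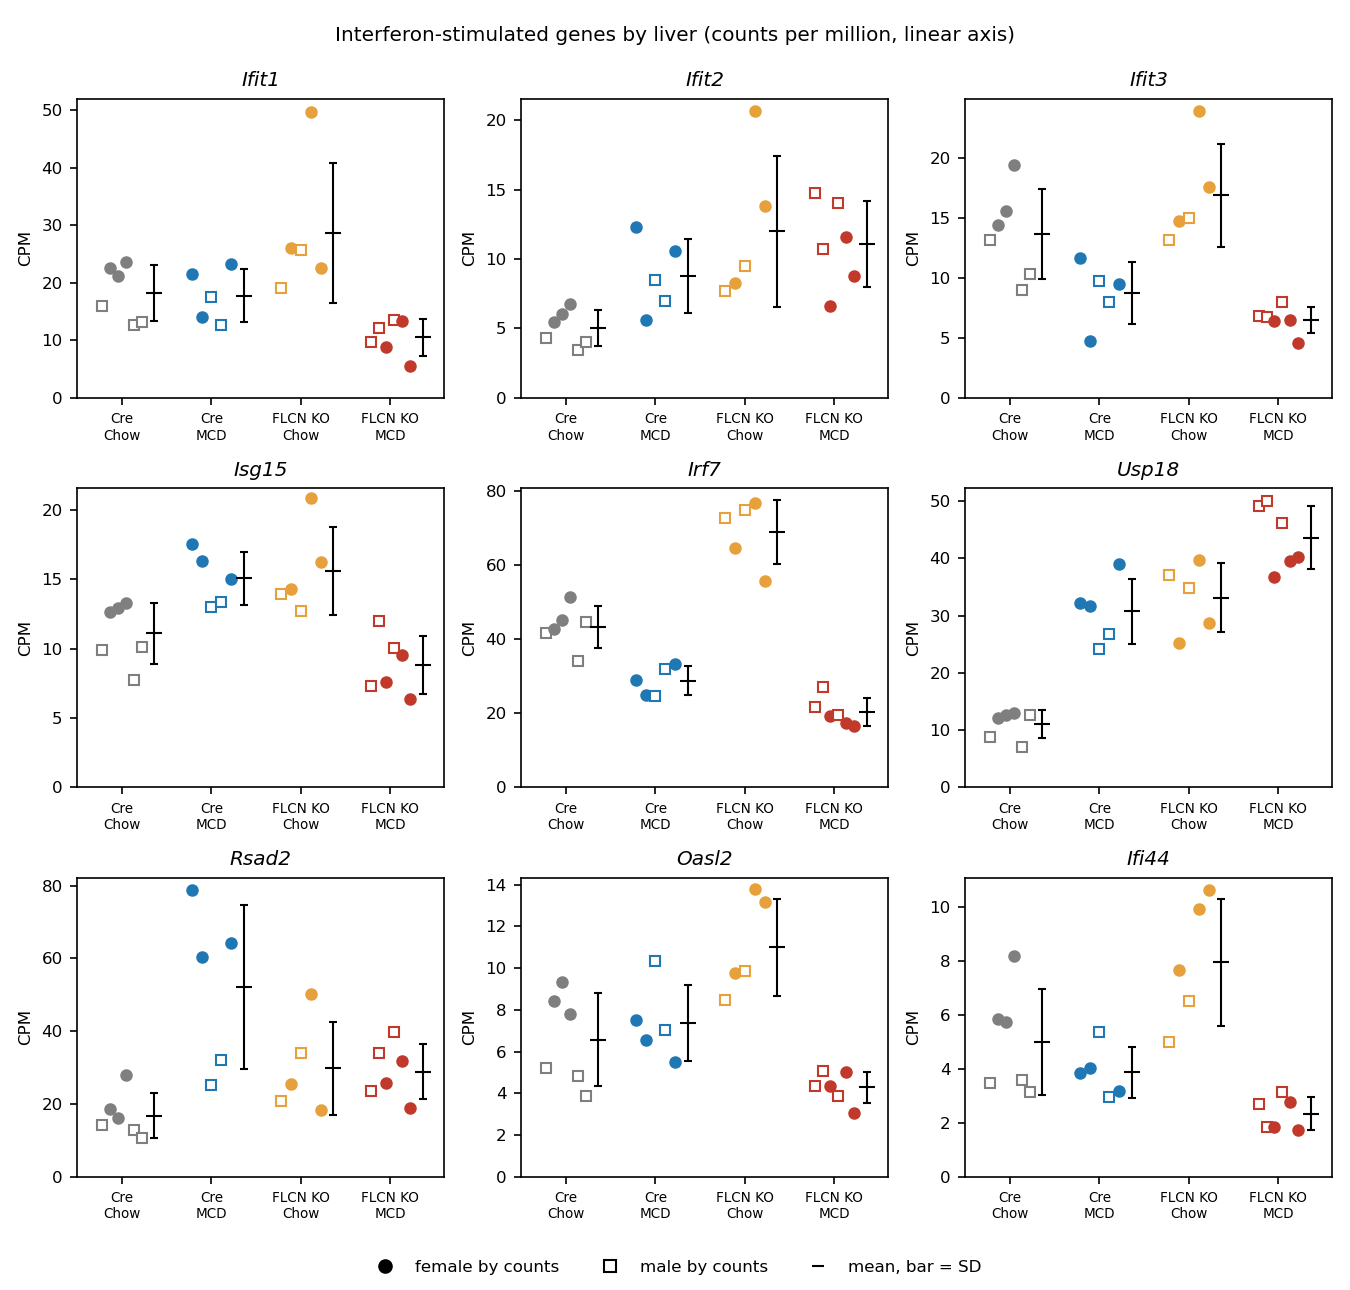
Level of each of the 9 genes in every liver, in CPM on a linear axis from 0, by group (Cre or FLCN KO, chow or MCD); circles are libraries read as female, open squares libraries read as male, and the black mark and bar are the group mean and SD. *Irf7* in FLCN KO chow livers (55.8 to 76.8 CPM) lies above all Cre chow livers (34.0 to 51.4 CPM), and *Usp18* in Cre chow livers (7.10 to 12.9 CPM) lies below every other liver.

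*Irf7* encodes the interferon-induced transcription factor that amplifies interferon alpha production (chr7:141262706-141266481, minus strand, protein coding). In Cre chow livers its level ran from 34.0 to 51.4 CPM with a median of 43.7, and in Cre MCD livers it was 29.0, 25.0, 24.6, 32.0 and 33.3 CPM. In FLCN KO chow livers it was 72.7, 64.8, 74.96, 76.8 and 55.8 CPM, and in FLCN KO MCD livers it ran from 16.6 to 27.0 CPM with a median of 19.4. Every FLCN KO chow liver was above every other liver, and only on the MCD diet did the genotypes overlap. The MCD diet lowered *Irf7* in both genotypes, less in Cre livers (log2 −0.59 ± 0.13 SE, edgeR adjusted p = 0.000462) than in FLCN KO livers, where it fell 3.41-fold (log2 −1.77 ± 0.13, adjusted p = 7.09e-10). FLCN KO livers held more *Irf7* than Cre livers on chow (log2 0.67 ± 0.12, edgeR adjusted p = 0.00121) and less on MCD (log2 −0.51 ± 0.13, adjusted p = 0.00741). *Irf7* was called in all 4 of these comparisons and in the difference between them in each of the 22 fits that left out 1 liver.

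The 3 *Ifit* genes lie in one cluster on chromosome 19 (*Ifit2* chr19:34550694-34576419, *Ifit3* chr19:34583531-34588731 and *Ifit1* chr19:34640871-34650009, all on the plus strand) and encode proteins that bind viral RNA and complexes of the translation machinery. *Ifit1* was 19.1, 26.1, 25.8, 49.8 and 22.5 CPM in FLCN KO chow livers and ran from 5.44 to 13.5 CPM, with a median of 10.9, in FLCN KO MCD livers. Its range was 12.7 to 23.6 CPM in Cre chow and 12.6 to 23.2 CPM in Cre MCD livers. The MCD diet thus separated the FLCN KO livers completely and left the Cre groups on the same range. *Ifit1* fell by 1.45 ± 0.25 SE on the log2 scale in FLCN KO livers (edgeR adjusted p = 9.12e-05), whereas in Cre livers the log2 fold change was −0.04 ± 0.25 (adjusted p = 0.899). *Ifit3* fell with the MCD diet in both genotypes, from 13.7 ± 3.74 to 8.74 ± 2.58 CPM in Cre livers (SD, n = 6 and 5, edgeR adjusted p = 0.0133) and from 16.9 ± 4.27 to 6.49 ± 1.12 CPM in FLCN KO livers (n = 5 and 6, adjusted p = 2.18e-05). *Ifit3* has a near copy, *Ifit3b*, which lies between *Ifit3* and *Ifit1* and whose promoter holds the same printed stretch. *Ifit3b*, named here after its values were seen, was counted with 17 to 84 reads per library against 95 to 435 for *Ifit3*, so reads shared by the copies may be missing or split between them, and *Ifit3* values are uncertain to that extent.

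*Ifit2* did not follow the other *Ifit* genes. Its level ran from 3.45 to 6.75 CPM (median 4.87) in Cre chow livers and was 12.3, 5.60, 8.48, 6.94 and 10.6 CPM in Cre MCD livers. In FLCN KO chow livers it was 7.70, 8.26, 9.47, 20.7 and 13.8 CPM, and in FLCN KO MCD livers it ran from 6.60 to 14.7 CPM (median 11.1). Cre chow livers were the low group, below all FLCN KO chow livers and overlapping the lower end of both MCD groups. *Ifit2* rose with the MCD diet in Cre livers (log2 0.81 ± 0.27 SE, edgeR adjusted p = 0.0139) and was higher in FLCN KO than in Cre livers on chow (log2 1.26 ± 0.27, adjusted p = 0.00424). The diet response in FLCN KO livers (log2 −0.12 ± 0.26, adjusted p = 0.739) and the genotype difference on MCD (log2 0.34 ± 0.26, adjusted p = 0.424) did not pass the test.

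*Isg15* encodes a ubiquitin-like modifier (chr4:156199424-156200818, minus strand), and *Usp18* the protease that removes it and that also blocks signalling at IFNAR2 (chr6:121245906-121270917, plus strand). *Isg15* ran from 7.71 to 13.3 CPM (median 11.4) in Cre chow livers and was 17.6, 16.3, 13.0, 13.4 and 15.0 CPM in Cre MCD livers. It was 13.9, 14.3, 12.7, 20.8 and 16.3 CPM in FLCN KO chow livers and ran from 6.35 to 12.0 CPM (median 8.55) in FLCN KO MCD livers. The FLCN KO MCD livers were all below the other MCD livers and below the FLCN KO chow livers. *Isg15* rose with the MCD diet in Cre livers (log2 0.44 ± 0.17 SE, edgeR adjusted p = 0.0281) and fell in FLCN KO livers (log2 −0.83 ± 0.17, adjusted p = 0.000362). The rise in Cre livers did not pass the test without any 1 of Cre chow replicates 1, 5 and 6 or Cre MCD replicates 1 and 2 (edgeR adjusted p = 0.052 to 0.0762). On the MCD diet it was lower in FLCN KO than in Cre livers by 1.71-fold (log2 −0.77 ± 0.17, edgeR adjusted p = 0.00267).

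*Usp18* behaved otherwise. It ran from 7.10 to 12.9 CPM (median 12.4) in Cre chow livers and was 32.3, 31.7, 24.2, 26.8 and 39.0 CPM in Cre MCD livers. It was 37.0, 25.2, 34.8, 39.8 and 28.7 CPM in FLCN KO chow livers and ran from 36.7 to 50.1 CPM (median 43.2) in FLCN KO MCD livers. Cre chow livers stood apart at the low end, and deletion of *Flcn* on chow and the MCD diet in Cre mice gave overlapping ranges above them. The rise was 2.79-fold with the MCD diet in Cre livers (log2 1.48 ± 0.16 SE, edgeR adjusted p = 1.02e-07) and 3.00-fold with *Flcn* deletion on chow (log2 1.58 ± 0.16, adjusted p = 7.72e-07). In FLCN KO livers the MCD diet added 1.32-fold (log2 0.40 ± 0.15, edgeR adjusted p = 0.0397), and on MCD the genotypes differed by 1.42-fold (log2 0.50 ± 0.15, adjusted p = 0.0284). Of 22 fits that left out 1 liver, 6 lost the first call and 4 the second, while the log2 fold changes stayed between 0.31 and 0.47 and between 0.43 and 0.60. An antisense gene, *Gm44148*, shares 124 exonic bases with *Usp18*, and whether the counting used strand is not given in the sources used here.

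*Rsad2* encodes viperin, a radical SAM enzyme with antiviral activity that is found on the endoplasmic reticulum and lipid droplets (chr12:26442746-26456452, minus strand). It was 78.7, 60.3, 25.3, 32.0 and 64.1 CPM in Cre MCD livers and ran from 10.6 to 27.9 CPM (median 15.2) in Cre chow livers. In FLCN KO livers it was 20.9, 25.6, 33.9, 50.1 and 18.4 CPM on chow and ran from 18.9 to 39.6 CPM (median 28.7) on MCD. The 3 highest livers of all 22 were the 3 female Cre MCD livers, and the 2 male Cre MCD livers lay within the range of the FLCN KO livers. *Rsad2* rose 3.11-fold with the MCD diet in Cre livers (log2 1.64 ± 0.30 SE, edgeR adjusted p = 0.000105). In FLCN KO livers the diet response was −0.04 ± 0.30 on the log2 scale (adjusted p = 0.918). The genotype difference on MCD (log2 −0.85 ± 0.30, edgeR adjusted p = 0.0538) did not pass the test.

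*Oasl2* encodes a 2′-5′-oligoadenylate synthetase-like protein of the antiviral RNA response (chr5:114896936-114912234, plus strand), and *Ifi44* an interferon-induced cytoplasmic protein (chr3:151730922-151749960, minus strand). *Oasl2* was 8.48, 9.74, 9.87, 13.8 and 13.1 CPM in FLCN KO chow livers and ran from 3.05 to 5.08 CPM (median 4.33) in FLCN KO MCD livers. It ran from 3.86 to 9.32 CPM (median 6.503) in Cre chow livers and was 7.49, 6.55, 10.4, 7.03 and 5.48 CPM in Cre MCD livers. The FLCN KO MCD livers lay below all FLCN KO chow and all Cre MCD livers. *Oasl2* fell 2.57-fold with the MCD diet in FLCN KO livers (log2 −1.36 ± 0.21 SE, edgeR adjusted p = 2.41e-05) and was 1.72-fold lower in FLCN KO than in Cre livers on MCD (log2 −0.78 ± 0.21, adjusted p = 0.0133). *Ifi44* was the least abundant of the 9 by CPM in FLCN KO MCD livers, at 1.72 to 3.13 CPM, against 4.98, 7.66, 6.51, 9.93 and 10.6 CPM in FLCN KO chow livers. It fell 3.40-fold with the diet in FLCN KO livers (log2 −1.76 ± 0.25, edgeR adjusted p = 9.42e-06), and its response in Cre livers, from 4.99 ± 1.95 to 3.86 ± 0.936 CPM (SD, n = 6 and 5), did not pass the test (adjusted p = 0.212).

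Set side by side, the first question is what the MCD diet did in Cre livers. Of the 9 genes, *Ifit2*, *Isg15*, *Usp18* and *Rsad2* rose and *Ifit3* and *Irf7* fell, so 6 of 9 were called where 57.5% of all tested genes were called. The 4 that rose compare with 29.3% of all genes called higher, and the 2 that fell with 28.2% called lower. The median log2 fold change was 0.16 over the 9 genes and 0.01 over all tested genes. The groups did not overlap for 2 of the 9 genes, *Irf7* and *Usp18*, against 32.5% of all tested genes. The count of calls is close to that background. Without Cre MCD replicate 3, the library with muscle transcripts, 6 of the 9 genes were again called, and without the 5 male chow libraries with low unique mapping 5 were called, with *Ifit2* and *Isg15* lost (edgeR adjusted p = 0.168 and 0.343) and *Ifi44* added as lower (log2 −0.77, adjusted p = 0.00957).

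In FLCN KO livers the diet moved the genes mostly one way. *Ifit1*, *Ifit3*, *Isg15*, *Irf7*, *Oasl2* and *Ifi44* fell and *Usp18* rose, so 7 of 9 were called against 45.0% of all tested genes, and the 6 that fell compare with 22.5% called lower. The median log2 fold change was −1.36 over the 9 genes and 0.0043 over all tested genes. The ranges of the diets did not overlap for the same 6 falling genes, against 29.2% of all tested genes. Leaving out the 5 chow libraries with low unique mapping gave 7 calls again.

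On chow, 4 of the 9 genes were higher in FLCN KO than in Cre livers. All 9 had a log2 fold change above 0, with a median of 0.67 against −0.03 over all tested genes. The 4 called were *Ifit2*, *Irf7*, *Usp18* and *Oasl2*, where 8.62% of all tested genes were called and 5.52% were called higher. The groups did not overlap for *Ifit2*, *Irf7* and *Usp18*, 3 of 9 against 6.94% of all tested genes. The other genes had log2 fold changes from 0.31 (*Ifit3*, edgeR adjusted p = 0.404) to 0.83 (*Rsad2*, adjusted p = 0.0923). The calls changed without the libraries that stood apart: without the 5 chow libraries with low unique mapping, *Usp18* alone was called (log2 1.31), and *Ifit2* (1.22), *Irf7* (0.50) and *Oasl2* (0.52) kept their direction without passing the test. The fit without them has 6 chow livers in place of 11.

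On the MCD diet the direction of most genes was the opposite. *Ifit1*, *Isg15*, *Irf7* and *Oasl2* were lower and *Usp18* was higher in FLCN KO than in Cre livers, so 5 of 9 were called where 16.6% of all tested genes were called, with 4 lower against 8.53% of all genes and 1 higher against 8.06%. The median log2 fold change was −0.72 over the 9 genes and −0.01 over all tested genes. The ranges did not overlap for *Isg15* and *Oasl2*, 2 of 9 against 8.61% of all tested genes. *Rsad2* and *Ifi44* missed the threshold narrowly (log2 −0.85 and −0.72, edgeR adjusted p = 0.0538 and 0.0555), and *Ifit3* had a log2 fold change of −0.43 ± 0.21 SE (adjusted p = 0.186). Without Cre MCD replicate 3, 4 of the 9 genes were called, with *Ifit1* (log2 −0.76) and *Usp18* (log2 0.43) close to their values with all livers and no longer among the calls (edgeR adjusted p = 0.0592 and 0.0688) and *Rsad2* added (adjusted p = 0.0175). Without FLCN KO MCD replicate 1 the count was 3, since *Ifit1* and *Usp18* no longer passed (edgeR adjusted p = 0.0747 and 0.0571).

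The test of the difference between the diet responses asks whether the MCD diet acted differently in the 2 genotypes. All 9 genes had a negative difference, that is, a signed response more negative or less positive in FLCN KO than in Cre livers. A lower diet response has this meaning below, so it includes a deeper fall. The test was passed by 7 of 9, where 8.83% of all tested genes passed and 5.54% passed with a negative difference. The median difference was −1.26 on the log2 scale over the 9 genes and 0.03 over all tested genes. The differences called ran from −1.08 ± 0.22 SE for *Usp18* (edgeR adjusted p = 0.00494) to −1.68 ± 0.42 for *Rsad2* (adjusted p = 0.0177), with *Irf7* at −1.18 ± 0.18 (adjusted p = 0.000706) and *Isg15* at −1.26 ± 0.23 (adjusted p = 0.00276). *Ifit2* (−0.92 ± 0.37, adjusted p = 0.125) and *Ifit3* (−0.73 ± 0.30, adjusted p = 0.13) did not pass. Without the 5 chow libraries with low unique mapping, which leaves 6 of 11 chow livers, 5 of 9 genes passed, and *Ifit1* (log2 −1.30, edgeR adjusted p = 0.0642) and *Rsad2* (log2 −1.43, adjusted p = 0.108) kept their direction without passing. Without Cre MCD replicate 3 the count stayed at 7. Without the 2 female libraries with the most Y-linked reads, 6 of 9 genes passed and *Rsad2* did not (log2 −1.53, edgeR adjusted p = 0.0506). Leaving out the same 2 libraries gave 5 and 6 calls for the diet in Cre and FLCN KO livers and 4 and 4 for the genotype on chow and MCD. The calls lost were *Isg15* in the Cre diet response (log2 0.38, edgeR adjusted p = 0.0839), *Usp18* in the FLCN KO diet response (log2 0.32, adjusted p = 0.133) and *Ifit1* between genotypes on MCD (log2 −0.68, adjusted p = 0.121). The 5 comparisons share their groups, so they are not independent of each other.

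**Figure D2:**
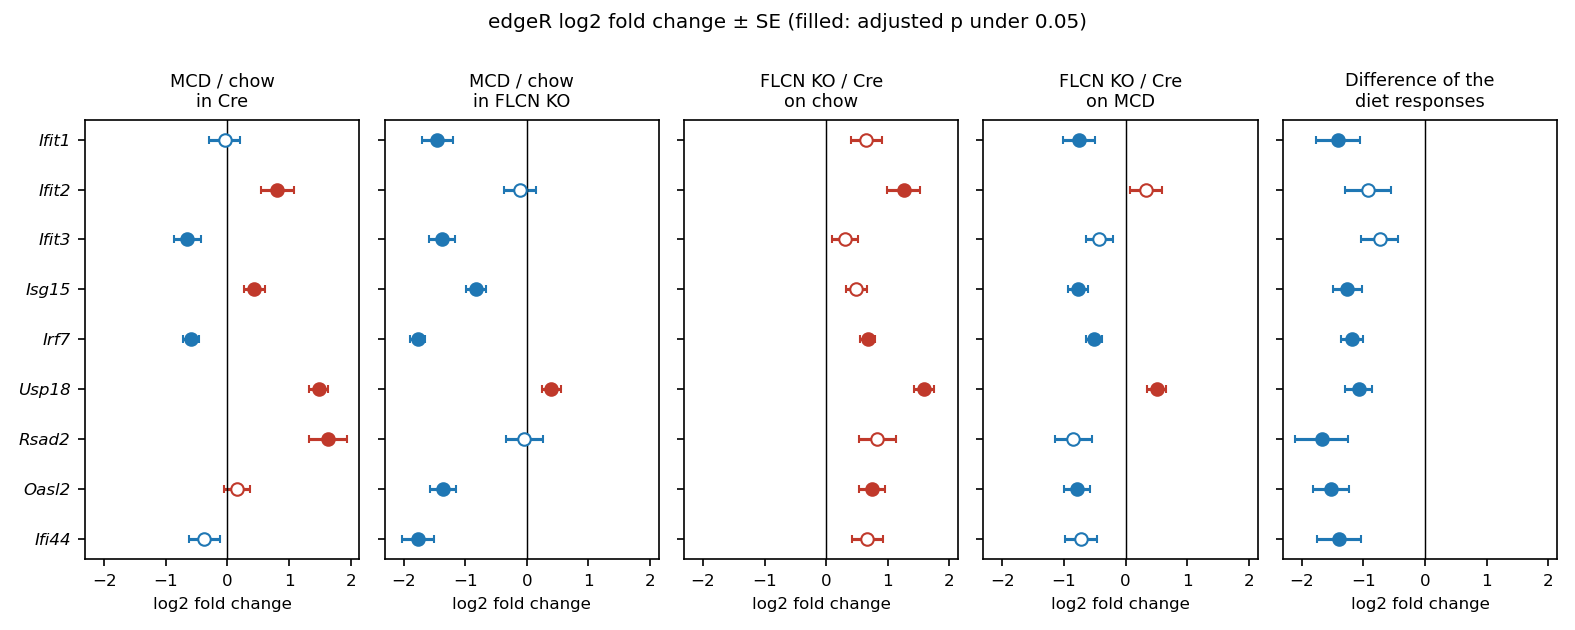
Log2 fold change of the 9 genes with its SE (horizontal bars) in the 2 diet comparisons, the 2 genotype comparisons and the difference of the diet responses; filled points passed an adjusted p of 0.05 in edgeR, red is above 0 and blue below. On chow all 9 points lie above 0 and in the difference of the diet responses all 9 lie below 0.

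The sexes, read from *Xist* and Y-linked counts, differed in part. In Cre chow livers, male libraries held less *Oasl2* (3.86 to 5.22 CPM against 7.79 to 9.32 in female libraries) and less *Ifi44* (3.13 to 3.59 against 5.74 to 8.15 CPM), and both differences passed the test (log2 −0.88 and −0.95, edgeR adjusted p = 0.0149 and 0.0293), where 6.62% of all tested genes did. These are also the Cre chow libraries with low unique mapping. In a fit with a mean for each sex in each group, *Oasl2* rose with the MCD diet in male Cre livers (log2 0.91 ± 0.23 SE, edgeR adjusted p = 0.00356). In female Cre livers its log2 fold change was −0.39 ± 0.20 (adjusted p = 0.116). The male Cre MCD livers were replicate 3, the library with muscle transcripts (10.4 CPM), and replicate 4 (7.03 CPM), and this rise was not tested without replicate 3. *Ifi44* fell in female Cre livers (log2 −0.84 ± 0.24, edgeR adjusted p = 0.0081), and in male Cre livers its log2 fold change was 0.29 ± 0.28 (adjusted p = 0.442). The difference between the sexes passed the test for *Oasl2* (log2 1.29 ± 0.30, edgeR adjusted p = 0.027), 1 of 9 genes where 3.19% of all tested genes passed, and for none of the other 8 genes in this comparison. On the MCD diet *Rsad2* was lower in FLCN KO than in Cre livers among females (log2 −1.41 ± 0.31, edgeR adjusted p = 0.00536), and among males the log2 fold change was 0.18 ± 0.34 (adjusted p = 0.806). *Usp18* was higher in FLCN KO livers on MCD among males (log2 0.93 ± 0.19, adjusted p = 0.00414), and among females the log2 fold change was 0.18 ± 0.16 (adjusted p = 0.529). Neither of these sex differences passed the test of the difference itself (edgeR adjusted p = 0.257 for *Rsad2* and 0.325 for *Usp18*), and groups of 2 or 3 livers per sex limit that test. In the difference of the diet responses all 9 genes were below 0 in both sexes, with 7 called among females, where 7.16% of all tested genes were called, and 2 among males, where 1.38% were.

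**Figure D3:**
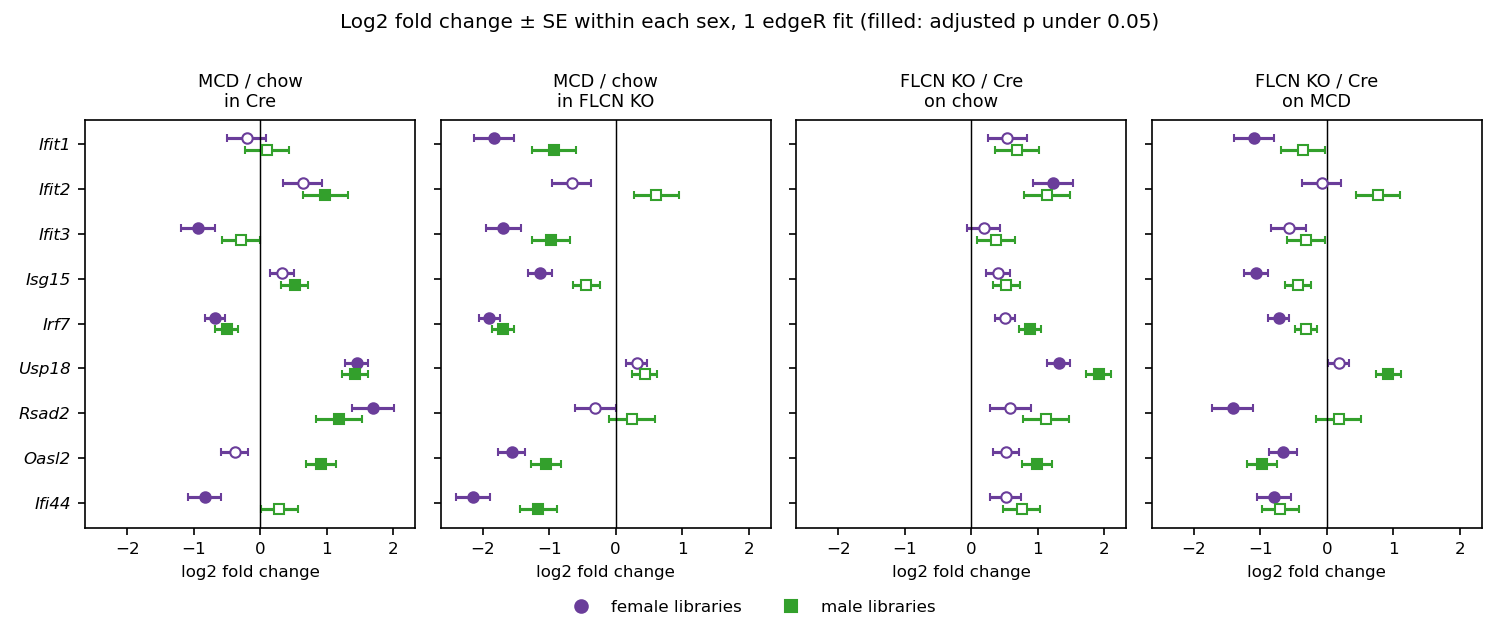
Log2 fold change with its SE for the 9 genes within female (circles) and male (squares) libraries, from 1 edgeR fit with 8 group-by-sex means; filled symbols passed an adjusted p of 0.05. In the MCD comparison of the genotypes *Rsad2* lies at −1.41 in females and 0.18 in males, and on chow all 9 genes lie above 0 in both sexes.

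Interferon genes themselves were at or near 0 reads. Of 21 interferon ligand genes in the table, 15 had no read in any library, and the other 6 had at most 5 reads in a library (*Ifng* and *Ifnk*, with totals of 17 and 16 over all 22 libraries). *Ifnb1* had 2 reads in a single library. None reached the mean count for testing, so a change of ligand mRNA was not detectable at this depth.

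The receptor and signalling genes were called between genotypes about as rarely as all tested genes. All 12 genes of the receptor and JAK-STAT list were tested, and on chow none passed in either direction, where 8.62% of all tested genes did. *Ifnlr1*, the interferon lambda receptor, had a log2 fold change of 1.29 ± 0.57 SE on chow (edgeR adjusted p = 0.166). On MCD 1 of the 12 was lower in FLCN KO livers, against 8.53% of all tested genes. The diet response differed for 1, with a negative difference, against 5.54%. With 12 genes, such shares leave few calls to look for. The MCD diet raised 5 and lowered 4 of them in Cre livers and raised 5 and lowered 5 in FLCN KO livers, against 29.3% higher and 28.2% lower of all tested genes in Cre livers and 22.5% each way in FLCN KO livers. The genes that fell in both included *Ifnar2* (log2 −0.88 in Cre and −0.64 in FLCN KO livers), *Stat2* (−0.66 and −0.83) and *Irf9* (−0.88 and −1.08), while *Ifnar1* did not pass in either (0.07 and 0.18). *Ifnlr1* rose from a low level, from a mean of 0.122 to 1.11 CPM in Cre livers (log2 3.10 ± 0.48 SE, edgeR adjusted p = 1.45e-05) and from 0.299 to 2.20 CPM in FLCN KO livers (log2 2.80 ± 0.42, adjusted p = 1.72e-05).

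Of the negative regulators, 15 of 17 were tested. None was called between genotypes on chow or in the difference of the diet responses, where 8.62% and 8.83% of all tested genes were called. Those shares leave few calls to look for among 15 genes. On MCD, *Ptpn1* and *Ptpn6*, phosphatases that act on JAK-STAT signalling, were lower in FLCN KO than in Cre livers (log2 −0.27 and −0.33), 2 of 15 against 8.53% of all tested genes. *Socs3*, an inhibitor of JAK kinases, was not called in any comparison. Of the sensors and adaptors of nucleic acid recognition, 24 of 25 were tested and none was called on chow. The diet response differed for 5 of them, all with a negative difference (5.54% of all tested genes), among them *Cgas*, the cytosolic DNA sensor (−1.51), *Zbp1*, a sensor of Z-form nucleic acids (−1.30), and *Irf5* (−1.03). *Dhx58*, which encodes the RNA sensor LGP2, fell in both genotypes (log2 −1.26 in Cre and −1.58 in FLCN KO livers), as did *Mavs*, the mitochondrial adaptor (−1.26 and −0.70). Between genotypes on MCD, 6 of the 24 were lower in FLCN KO livers and 1 was higher, against 8.53% and 8.06% of all tested genes. Those lower were *Cgas* (log2 −1.01, edgeR adjusted p = 0.0192), *Zbp1* (−0.90, adjusted p = 0.0172), *Tlr4* (−0.71, adjusted p = 0.0392), *Irf5* (−0.70, adjusted p = 0.00577), *Tmem173* (−0.66, adjusted p = 0.0467), which encodes the adaptor STING, and *Traf3* (−0.39, adjusted p = 0.0329). The 1 higher was *Mavs* (log2 0.56, edgeR adjusted p = 0.0277).

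A wider list of interferon-stimulated genes was counted in the same comparisons. Of 126 listed genes other than the 9, 125 were in the table and 115 were tested. In Cre livers the MCD diet raised 20 and lowered 48 of them, where 29.3% of all tested genes rose and 28.2% fell, and in FLCN KO livers it raised 4 and lowered 77, where 22.5% rose and 22.5% fell. The total of calls in Cre livers is thus near the 57.5% of all tested genes. On chow 16 were higher and 1 lower in FLCN KO livers, with a median log2 fold change of 0.19, against 5.52% higher and 3.10% lower of all tested genes. On MCD none was higher and 23 were lower, with a median of −0.29, against 8.06% and 8.53%. The diet response differed for 33 of the 115, all with a negative difference, where 5.54% of all tested genes were called with a negative difference.

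The genes of that list with the largest called changes included chemokines and antiviral enzymes. *Cxcl10*, a chemokine that attracts activated T cells, rose in Cre livers from 3.97 ± 1.53 to 14.2 ± 6.49 CPM (SD, n = 6 and 5, edgeR log2 1.83, adjusted p = 5.95e-05) and was 6.40 ± 2.55 and 5.60 ± 1.26 CPM in FLCN KO livers on chow and MCD. *Oasl1*, a relative of *Oasl2*, was 47.5 ± 15.1 CPM in Cre MCD and 16.7 ± 4.70 CPM in FLCN KO MCD livers (log2 −1.51, edgeR adjusted p = 0.000214). *Oas1a*, an oligoadenylate synthetase, was 4.42 ± 0.822 and 4.43 ± 0.893 CPM in Cre livers on chow and MCD and 9.73 ± 2.71 and 2.44 ± 0.830 CPM in FLCN KO livers. *Ifi27l2b*, from a family of small interferon-induced proteins, gave the most negative difference of diet responses among those called (−2.63 ± 0.38 SE, edgeR adjusted p = 0.000616), with 3.25 ± 1.75 and 30.7 ± 8.35 CPM in Cre and 9.73 ± 2.90 and 14.6 ± 3.10 CPM in FLCN KO livers. *Bst2*, which encodes tetherin, fell with the diet in both genotypes, to 51.4 ± 5.06 CPM in Cre and 53.0 ± 7.28 CPM in FLCN KO livers.

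Genes induced mainly by interferon gamma, including the guanylate-binding proteins, gave 35 tested members of 39. With the MCD diet 7 rose and 12 fell in Cre livers, a total near the 57.5% called of all tested genes, and 1 rose and 25 fell in FLCN KO livers, where 22.5% of all tested genes fell. On chow 4 were higher in FLCN KO livers, against 5.52% of all tested genes. They were led by *Gm12250*, an interferon-inducible GTPase gene, at 10.3 ± 4.05 against 2.46 ± 1.24 CPM (SD, n = 5 and 6, edgeR log2 2.06, adjusted p = 0.000143). On MCD 1 was higher and 6 were lower in FLCN KO livers, against 8.06% and 8.53% of all tested genes. Of these 35 genes, 12 had a lower diet response in FLCN KO livers and none a higher one, against 5.54% and 3.29% of all tested genes.

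**Figure D4:**
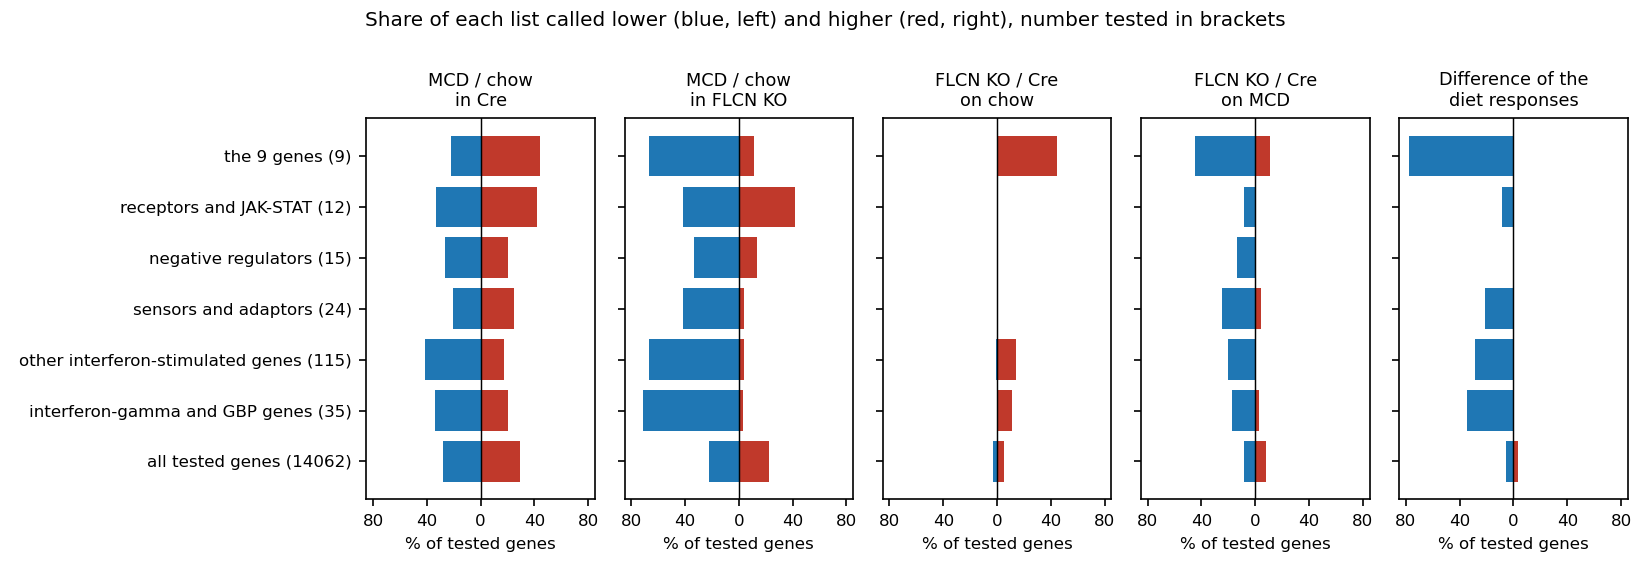
Percent of the tested genes of each list that edgeR called lower (blue, to the left) or higher (red, to the right) in the 5 comparisons, with the number tested in brackets and all 14062 tested genes in the bottom row. In the difference of the diet responses no gene of the lists is called higher, while 3.29% of all tested genes are.

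Markers of other cell types moved with these comparisons. The 6 macrophage markers, of which *Mpeg1* was the most abundant, summed to 255 ± 41.7 CPM in Cre chow, 437 ± 93.4 in Cre MCD, 346 ± 71.3 in FLCN KO chow and 269 ± 81.1 in FLCN KO MCD livers (SD, n = 6, 5, 5 and 6). With the MCD diet 3 of the 6 rose in Cre livers, and in FLCN KO livers 1 rose and 3 fell, against 29.3% of all tested genes higher in Cre livers and 22.5% each way in FLCN KO livers. The diet response differed for *Cd68*, *Mpeg1* and *Lyz2* (named after their values were seen), each lower in FLCN KO livers, where 5.54% of all tested genes had a lower response. The 7 markers of monocyte-derived macrophages summed to 48.7 ± 10.8, 285 ± 86.7, 113 ± 48.3 and 246 ± 94.9 CPM in the same order. *Spp1* made up 44.5, 117, 103 and 91.6 CPM of these sums, so on chow they are mostly that gene. All 7 rose in Cre livers, against 29.3% of all tested genes, and 6 of the 7 had a lower diet response in FLCN KO livers, against 5.54%. *Ly6c2* belongs both to this list and to the wider list of interferon-stimulated genes. The 5 Kupffer cell markers, led by *Cd5l*, summed to 373 ± 69.8, 352 ± 130, 428 ± 74.5 and 314 ± 92.1 CPM, and none of them differed in diet response.

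The 9 markers of T and NK cells summed to 5.66 ± 1.14 CPM in Cre chow, 5.99 ± 1.61 in Cre MCD, 9.13 ± 1.15 in FLCN KO chow and 4.80 ± 0.986 in FLCN KO MCD livers, and of the 6 tested, 4 fell with the diet in FLCN KO livers, against 22.5% of all tested genes. B cell markers summed to 3.34, 3.17, 5.77 and 3.09 CPM in the same order. The 6 markers of plasmacytoid dendritic cells summed to 5.54, 191, 14.2 and 214 CPM, of which *Ly6d* made up 4.35, 180, 12.2 and 211 CPM. The sums thus follow that gene. Of the 4 tested, all rose with the diet in Cre livers and 1 in FLCN KO livers, against 29.3% and 22.5% of all tested genes. On MCD 2 of the 4 were lower in FLCN KO than in Cre livers, against 8.53%, with a median log2 fold change of −1.02. The diet response was lower in FLCN KO livers for 1, against 5.54%. Neutrophil markers summed to 5.91 ± 2.87, 32.0 ± 17.0, 6.34 ± 2.14 and 18.0 ± 5.68 CPM, and stellate cell markers, led by *Dcn*, to 304 ± 71.5, 535 ± 111, 335 ± 59.0 and 395 ± 34.3 CPM. Endothelial cell markers, led by *Stab2*, summed to 180 ± 39.1, 146 ± 19.0, 221 ± 23.6 and 174 ± 7.91 CPM. The endothelial sums did not overlap between FLCN KO livers on chow (196 to 255 CPM) and MCD (166 to 185 CPM), and overlapped between the diets in Cre livers. The T and NK cell sums did likewise, with 8.19 to 11.1 CPM on chow and 4.06 to 6.63 CPM on MCD in FLCN KO livers. Sums of hepatocyte, neutrophil and plasmacytoid dendritic cell markers did not overlap between the diets in either genotype. Hepatocyte markers, led by *Alb*, summed to 133423, 93159, 109360 and 73586 CPM, in keeping with the labelled tissue. No gene of these marker lists was at 0 in all libraries of a group. The part of these cells in the levels of the 9 genes was not tested.

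**Figure D5:**
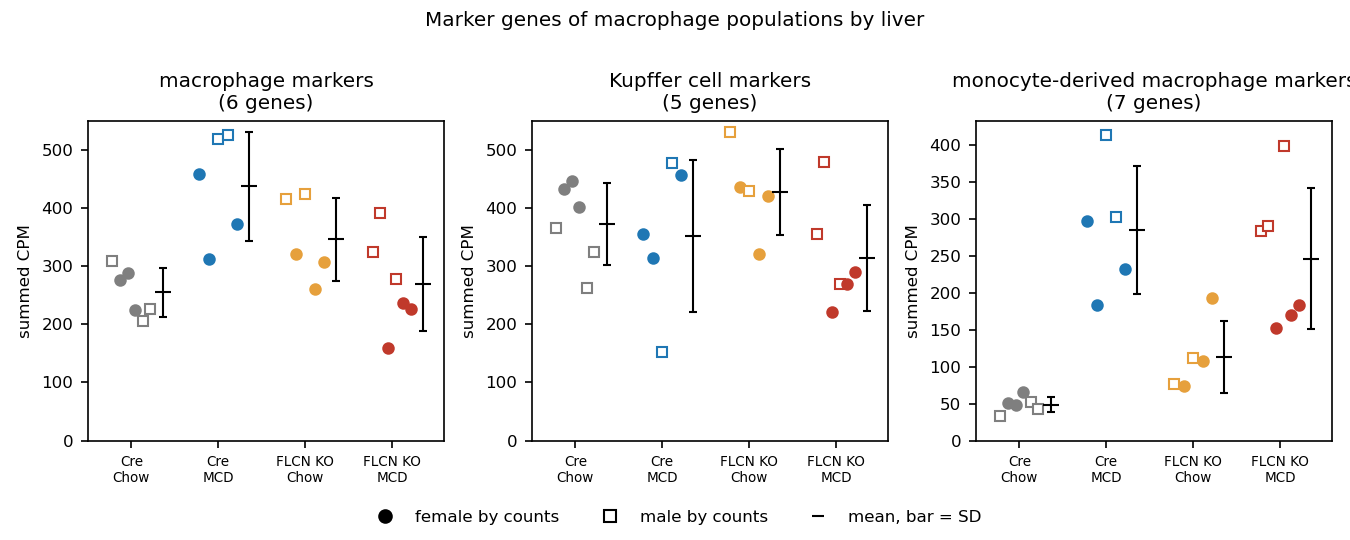
Summed CPM of macrophage, Kupffer cell and monocyte-derived macrophage markers in every liver by group, on linear axes from 0; circles are libraries read as female, open squares libraries read as male, and the black mark and bar are mean and SD. The macrophage sum is highest in Cre MCD livers (mean 437 CPM), and the monocyte-derived sum is lowest in Cre chow livers (mean 48.7 CPM).

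Within groups, some of the 9 genes varied together across livers and others did not. FLCN KO chow replicate 4 had the highest level of its group for 8 of the 9 genes and the highest of all 22 livers for 6, and Cre chow replicate 4 was the highest of its group for 8. FLCN KO MCD replicate 6 was the lowest of its group for 7, and Cre chow replicate 5, a library with low unique mapping, for 6. After each group's mean was removed, Pearson's r of log2 CPM over the 22 livers, which share library and depth, ran from −0.06 (*Irf7* and *Ifi44*) to 0.83 (*Ifit2* and *Ifit3*). *Irf7* was closest to *Usp18* (0.71) and *Oasl2* to *Ifi44* (0.76), with low values between these pairs, such as 0.11 for *Usp18* and *Oasl2*. The values with sex removed as well were similar for these pairs (0.82, 0.76 and 0.73 for *Ifit2* with *Ifit3*, *Irf7* with *Usp18*, and *Oasl2* with *Ifi44*).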

How the data were processed

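Liver RNA of 22 mice was sequenced, and the authors deposited raw counts per gene, which per the labels were made with bcl2fastq, Trimmomatic, STAR and HTSeq on GRCm38; the strand setting of the counting is not given in the sources used here. From these counts, 14062 genes whose counts averaged 10 or more were tested with edgeR 4.0.16 in R 4.3.3 (TMM scaling, quasi-likelihood test, 4 group means in 1 fit, Benjamini-Hochberg adjustment, threshold 0.05). CPM were computed from the TMM-scaled library sizes. The labels do not say how replicates of a group were housed or prepared, so p-values measure the spread between these livers. Within groups, Spearman correlations of libraries ran from 0.939 to 0.994 over 50 pairs and no pair was identical. Genes outside the 9 were named as the 5 called genes of a list with the largest change per comparison, with pathway and marker genes named from their lists. Members and lists were chosen with earlier results of these data known. Alternatives used DESeq2 1.42.0, limma-voom 3.58.1, RLE scaling, other filters, the groups compared alone, a replicate block, a sex covariate, each sex alone, and fits without single livers or without libraries that stood apart. Positions came from GENCODE M21 and promoters from RefSeq. The values of a gene in the receptor and signalling list are not reported here.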

Additional observations from a re-analysis of the deposited data

Results flagged for a closer look

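*Ifit1* in FLCN KO chow replicate 4 stood at 49.8 CPM, far from the other 4 livers of its group (19.1 to 26.1 CPM), and was the 1 value so marked among 36 sets of group and gene tested for a lone extreme value. Chance marks about 1 in 20 such sets. Leaving out this liver kept *Ifit1* called in the diet response of FLCN KO livers (log2 −1.16, edgeR adjusted p = 0.000433).

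For 7 of the 9 genes the log2 response to the MCD diet differed between genotypes by the edgeR test of the difference itself. All 7 had a more negative or less positive response in FLCN KO livers. With the replicate number as a block, 4 passed, and *Ifit1* (−1.21), *Rsad2* (−1.53) and *Ifi44* (−1.25) kept their direction and missed the threshold narrowly (edgeR adjusted p = 0.0553, 0.0502 and 0.0559). The differences were −1.41 for *Ifit1*, −1.26 for *Isg15*, −1.18 for *Irf7*, −1.08 for *Usp18*, −1.68 for *Rsad2*, −1.52 for *Oasl2* and −1.39 for *Ifi44*. Macrophage and monocyte-derived macrophage markers moved in the same direction, and their part in these values was not tested.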

How the results depend on the processing

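Genes called moved by over 1.5 times in these settings. With male livers alone they numbered 4685 and 2905 for the diet in Cre and FLCN KO livers, 335 and 720 for the genotype on chow and MCD, and 63 for the difference of responses. On chow they numbered 495 without the 5 libraries with low unique mapping and 627 with female livers alone. For the difference they numbered 552 with the replicate block, 783 without the 5 libraries and 683 without the 2 female libraries with Y-linked reads. Of the 9 genes, 1 was called on chow without the 5 libraries and 1 with female livers alone; on MCD 3 were called with the replicate block and 2 with male livers alone; for the difference 4 with the block and 1 with male livers alone. Fits of 1 sex hold 12 or 10 of the 22 livers. For the other settings the cause was not tested. The settings on single sexes and on Y-linked reads, and the interferon gamma and E-box motifs, were chosen after seeing the data.

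Directions turned only for genes that did not pass the test with all livers. *Oasl2* in the Cre diet response was −0.21 without the 5 libraries and −0.38 in females, and in males *Ifit1* was 0.13 and *Ifi44* 0.31. In that response *Oasl2* passed with male livers alone (0.93, edgeR adjusted p = 0.012) and *Ifi44* with female livers alone (−0.84, adjusted p = 0.00558). In the FLCN KO diet response *Rsad2* was 0.0084 with voom, 0.075 with the block, 0.037 with sex as a covariate and 0.22 in males, and *Ifit2* was 0.60 in males. On MCD *Ifit2* was −0.076 in females and *Rsad2* 0.17 in males.

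The replicate block took *Ifit1* (adjusted p = 0.0553), *Rsad2* (0.0502) and *Ifi44* (0.0559) from the calls for the difference, *Ifit1* (0.0569) and *Usp18* (0.0724) from those on MCD and *Usp18* (0.075) from the FLCN KO diet response, each in the edgeR fit. *Ifit1* on MCD also missed the threshold with sex as a covariate (edgeR adjusted p = 0.054) and with no filter on low counts (0.0575), as did *Usp18* in the FLCN KO diet response with no filter (0.0587). With only the groups compared, *Oasl2* was lost on chow (0.066) and *Ifi44* gained on MCD (0.0422). DESeq2 added *Rsad2* (adjusted p = 0.0242) and *Ifi44* (0.033) on MCD and *Isg15* (0.0448) and *Rsad2* (0.0454) on chow.

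Leaving out 1 liver at a time gave 7595 to 8165 genes for the Cre diet, 5613 to 6591 for the FLCN KO diet, 669 to 1428 for chow (669 without FLCN KO chow replicate 4), 1770 to 2466 for MCD and 813 to 1422 for the difference (813 without FLCN KO chow replicate 4 and 817 without Cre MCD replicate 1). Of the 9 genes, 4 to 6, 6 to 7, 3 to 6, 3 to 7 and 7 to 8 were called. *Ifit1* ran from −0.14 to 0.060 in the Cre diet response, and *Ifit2* from −0.24 to 0.17 and *Rsad2* from −0.18 to 0.23 in the FLCN KO diet response. Calls were lost for *Ifit2* in the Cre diet response without Cre MCD replicate 1; for *Usp18* in the FLCN KO diet response without FLCN KO chow replicate 2, 3 or 5 or FLCN KO MCD replicate 1, 2 or 4; for *Oasl2* on chow without Cre chow replicate 1, 5 or 6 or FLCN KO chow replicate 4 or 5; for *Usp18* on MCD without Cre MCD replicate 3 or 4 or FLCN KO MCD replicate 1 or 2; and for *Ifit1* on MCD without Cre MCD replicate 1, 3 or 5, FLCN KO chow replicate 2 or FLCN KO MCD replicate 1, 3 or 6. No pair of groups had every correlation of same-numbered livers over 0.1, so the numbers were not taken to pair the livers. The means of these correlations ran from −0.084 to 0.129 between pairs of groups. Single correlations ran from −0.551 to 0.470 between Cre chow and FLCN KO chow livers, with 3 of 5 over 0.1, and from 0.062 to 0.262 between Cre MCD and FLCN KO MCD livers, with 2 of 5 over 0.1.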

Other observations

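Genes whose pattern across livers was most like that of the 9 were found by Pearson's r of log2 CPM with the mean z-score of the 9 genes, after group means were removed, over 22 livers that share library and depth. The 10 highest were *Nbdy* (0.868), *Lpcat1* (0.813), *Rad51b* (0.811), *2510009E07Rik* (0.811), *Evc* (0.807), *Tuba1a* (0.803), *Ggh* (0.798), *Gng11* (0.797), *Colec11* (0.796) and *Marcks* (0.791). Of these 10, 7 remained among the 10 highest without Cre chow replicate 4, and 3 without FLCN KO chow replicate 4, so the order rests largely on that liver. With group means kept, 1 of the 10 remained, and with sex removed as well, 6 remained.

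Several genes of the interferon gamma list changed with the MCD diet by more than any of the 9 genes, each from or to a low level. The lowest group mean was 0.438 CPM for *Ubd* and 0.147 CPM for *Acod1*, both in Cre chow livers. It was 0.330 CPM for *Gbp2b* in Cre MCD livers and 0.429 CPM for *Gbp10* in FLCN KO MCD livers. *Ubd*, a ubiquitin-like modifier, rose in both genotypes (log2 5.60 ± 0.66 SE in Cre and 3.19 ± 0.57 in FLCN KO livers, edgeR adjusted p = 3.78e-07 and 0.000117). *Gbp2b* fell in both (−4.27 ± 0.44 and −2.76 ± 0.37) and was higher in FLCN KO than in Cre livers on MCD (1.70 ± 0.45, edgeR adjusted p = 0.0115). *Gbp10* fell in both (−2.77 ± 0.38 and −4.20 ± 0.39). *Acod1*, the enzyme that makes itaconate in activated macrophages, rose in Cre livers (4.17 ± 0.61) and was lower in FLCN KO than in Cre livers on MCD (−1.52 ± 0.48, edgeR adjusted p = 0.0315). Near copies among the guanylate-binding proteins may share reads, so their values are uncertain.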
